A study of Arabidopsis thaliana with 24 samples.

Results

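The 68 probe sets described here carried transcripts that light lowered in wild type seedlings of Arabidopsis thaliana but that were higher in light-grown mutants of the COP9 signalosome. They were chosen from the measured values themselves, among 18751 tested probe sets of 22746 that are not array controls. In group means of log2(signal + 50), the wild type (WT) had to be lower in light than in darkness by at least 1.5. Each of the 3 mutants had to lie within 0.8 of WT in darkness, and each had to lie at least 1 above WT in light. The rule also names 7 genes to leave out, and 0 of them met these thresholds. Of the 68 members, 30 named 1 gene, 3 named several and 35 were unnamed here.

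The study compared whole seedlings 7 days old by Affymetrix ATH1 arrays, with 3 replicate arrays in each of 8 groups. Whether the replicates came from separate sowings was not stated, so p-values measure the spread between these arrays, which may be technical. The groups were csn3-1, csn4-1, csn5 (csn5a-2 csn5b) and WT of the Col background, each grown in light and in darkness. The labels describe the light-grown WT as CSN4-1 in Col. The lines are called csn3, csn4 and csn5-labelled here. The deposited signals are linear intensities made by the authors with MAS5, and each array was rescaled to 1 trimmed mean.

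The COP9 signalosome is a nuclear protein complex that removes the ubiquitin-like protein NEDD8 from cullin ubiquitin ligases. It was found through Arabidopsis mutants that develop as if in light while kept in darkness. In WT, darkness also keeps up a set of transcripts that light represses. In whole seedlings, a change in the number of cells of a type and a change in RNA per cell cannot be told apart.

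The only mutated gene with a probe set naming it alone was CSN5B. Its signal lay between 1573 and 1897 in csn5-labelled dark arrays, against 118 to 177 in WT dark. In light it lay between 651 and 895 in csn5-labelled arrays, against 110.0 to 123 in WT. The position of the probe set in relation to the mutations was not known, and it therefore checks no label. The arrays differed in RNA quality. The ratio of the 3′ to the 5′ probe set of the GAPDH control ran from 6.82 to 8.87 in csn3 light, from 6.49 to 130.0 in csn4 light and from 3.31 to 4.67 in csn5-labelled light, against 2.27 to 2.38 in WT light. The highest value belonged to csn4 light replicate 2. The lower quartile of all signals ran from 47.9 to 66.2 in csn3 light, 47.1 to 107.7 in csn4 light and 38.5 to 64.5 in csn5-labelled light, against 35.9 to 37.6 in WT light. In WT dark the ratio ran from 2.43 to 19.7 and the lower quartile from 41.3 to 63.9. Among the dark mutants the ratio ran from 4.35 in csn5-labelled to 27.5 in csn4 arrays, and the lower quartile from 46.9 to 104.6. These values move with the comparisons of mutants and WT in light and of light and dark in WT. The ratio also sets csn5-labelled arrays apart from csn3 and csn4 arrays, in light and in darkness. In darkness it ran from 4.35 to 7.42 in csn5-labelled, 7.74 to 24.6 in csn3 and 14.4 to 27.5 in csn4 arrays. The part of these values in the members' differences was not tested. The csn4 and WT light arrays also share an accession range that no other group falls in. Among the comparisons of mutants with WT in light, only that of csn4 lies within a range. The csn3 and csn5-labelled differences from WT in light, csn4 against either other mutant in light, and light against dark in WT and in csn4 run across ranges and cannot be told apart from them. All comparisons in darkness, csn3 against csn5-labelled seedlings in light, and light against dark within those mutants lie within a range.

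The limits of the rule were applied in turn. Of the tested probe sets, 843 were lower in light than in darkness in WT by the threshold. In 755 of them at least 1 mutant lay outside the dark limits, and 88 remained. Of these 88, csn3 was above WT in light by at least 1 in 72, csn4 in 78 and csn5-labelled seedlings in 72. All 3 mutants were above in 68, 2 in 4, 1 in 10 and none of them in 6. These counts follow from the rule and from WT arrays that all comparisons share, so they carry no test. The shares of all tested probe sets within the same limits are not given here, so nothing is read from the counts.

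Over the members, the median log2 difference between WT light and dark was -1.76, with a range from -3.10 to -1.52. The median difference between mutant and WT in light was 1.75 in csn3, 1.88 in csn4 and 1.84 in csn5-labelled seedlings. Over all tested probe sets the same medians were 0.15, 0.21 and 0.13. In darkness the members' medians were -0.13 in csn3, -0.07 in csn4 and -0.17 in csn5-labelled seedlings, against 0.18, 0.24 and 0.07 over all tested probe sets. All of these measures chose the members and are given as a description.

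**Figure D1:**
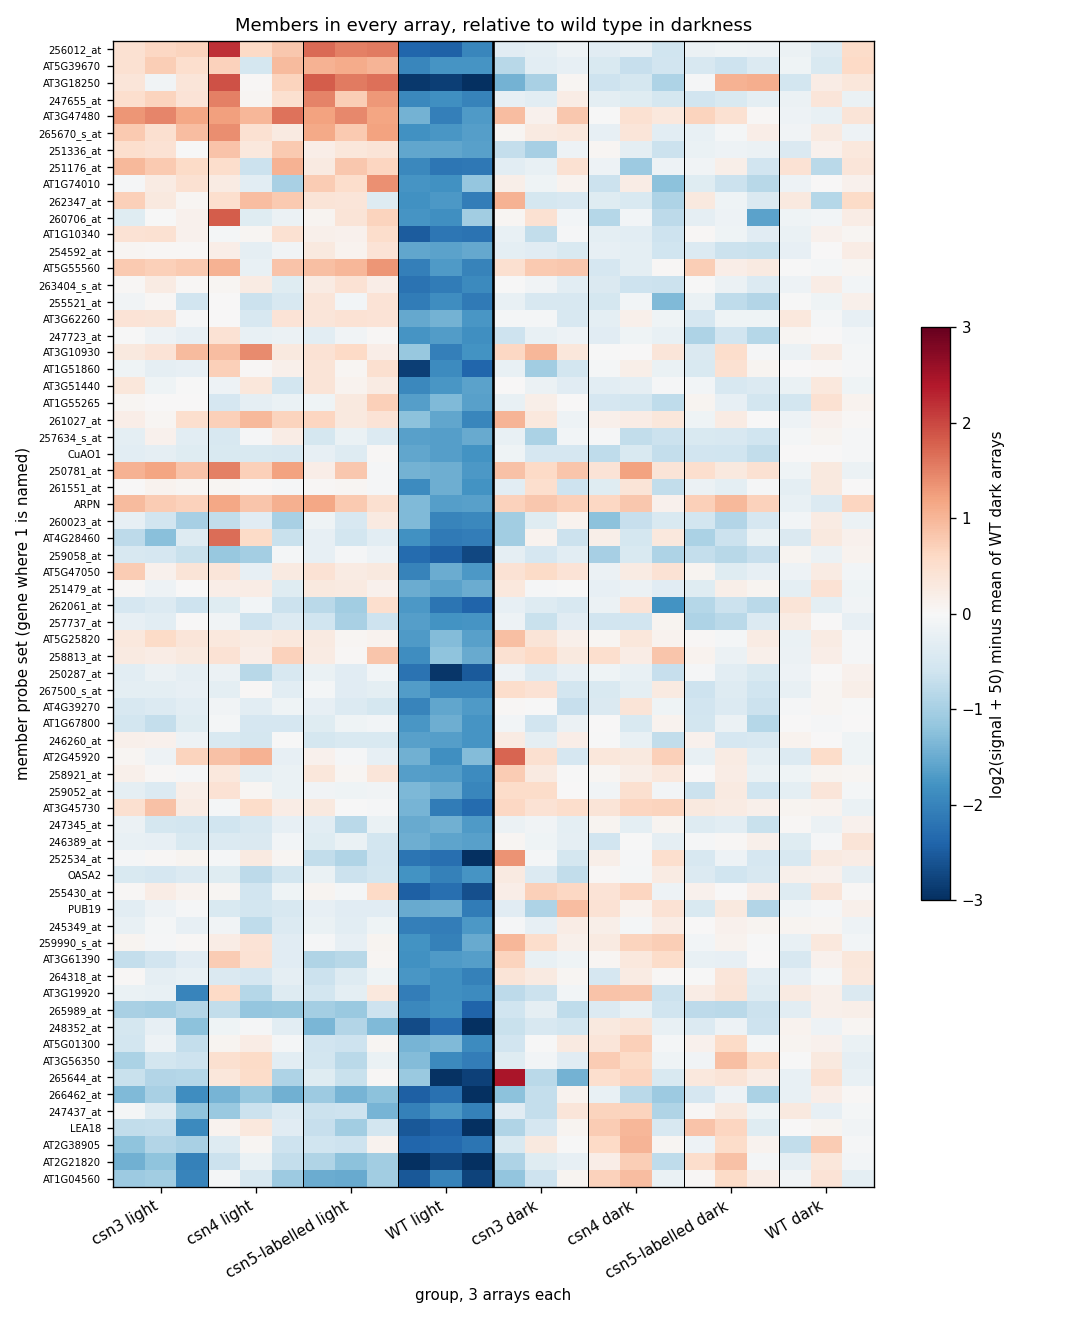
Each row is 1 of the 68 members and each column 1 of the 24 arrays, coloured by log2(signal + 50) minus the mean of the WT dark arrays. Rows run from the highest mean difference between light and dark in the mutants (256012_at, 1.39) to the lowest (AT1G04560, -1.15). The WT light arrays form the blue block, which the rule requires.

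All 9 mutant light arrays lay above all 3 WT light arrays in 67 of the 68 members. Of all tested probe sets 22.6% did so, and since the rule used this contrast nothing is read from the count. The exception was AT3G19920, named after its values were seen, with 10.3 in csn3 light replicate 3 against 7.3, 17.2 and 14.8 in WT light. In 68 of 68 members all 3 WT light arrays lay below all 3 WT dark arrays (28.4% of all tested probe sets, a contrast the rule also used). In 29 members all 3 WT light arrays were below a signal of 100, and in 0 members were all WT dark arrays below it. For such low signals the log2 difference is smaller than the ratio of the signals, because 50 was added to each.

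Members naming 1 gene with the highest differences between mutants and WT in light are described first. AT3G18250, for which no role is given here, had signals of 1145, 810.1 and 1132 in csn3 light, 3454, 891 and 1426 in csn4 light, and 3222, 2674 and 2880.5 in csn5-labelled light, against 75.0, 80.7 and 47.0 in WT light. The dark csn3 arrays had 294, 420.1 and 914, the dark csn4 arrays 552, 596 and 437, and the dark csn5-labelled arrays 859, 1849 and 1914, against 581, 1031 and 1114 in WT. Every mutant light array was above every WT light array, whereas the dark groups overlapped. The mutant mean exceeded WT in light by 3.91 on the log2 scale, and WT light minus dark was -2.99.

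Among calcium sensors, AT3G47480, a calmodulin-like protein with EF-hands, had 590.1, 659.9 and 522 in csn3 light, 549, 460.0 and 743 in csn4 light, and 538, 643 and 530.1 in csn5-labelled light, against 45.6, 12.2 and 29.2 in WT light. In darkness it ran from 203 to 436 over the 9 mutant arrays with a median of 304, against 180.5, 168 and 285 in WT. The mutants in light were thus above their own dark level and above that of WT. Relative to WT dark, the mean of the light-grown mutants was 1.29 higher, the highest such value of the 68 members.

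AT5G39670, another calmodulin-like protein, had 392, 483 and 406 in csn3 light, 469, 172 and 572 in csn4 light, and 608, 643 and 603 in csn5-labelled light, against 32.5, 44.3 and 43.3 in WT light. In the dark mutants it ran from 130.1 to 219.9 with a median of 181, against 242.5, 182 and 432.5 in WT dark. Only csn4 light replicate 2, the array of the highest GAPDH ratio, fell within the range of the dark mutant arrays.

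Kinases were also among the members named by rule. AT1G51860, a receptor-like kinase with leucine-rich repeats, had 337, 301 and 307 in csn3 light, 649, 386 and 420.4 in csn4 light, and 508, 396 and 546 in csn5-labelled light, against 10.0, 65.5 and 31.4 in WT light. Its mutant dark arrays ran from 157 to 538, against 377, 384 and 367 in WT dark. AT5G55560, a kinase of the WNK family, averaged 518 ± 14.0 (SD, n = 3) in csn3 light, 478 ± 212 in csn4 light and 659 ± 111 in csn5-labelled light, against 39.5 ± 11.9 in WT light. Its dark means were 494, 235 and 401 in csn3, csn4 and csn5-labelled arrays, against 285 in WT.

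AT1G10340, an ankyrin-repeat protein, averaged 904 ± 115 (SD, n = 3) in csn3 light, 791 ± 163 in csn4 light and 854 ± 142 in csn5-labelled light, against 103 ± 18.8 in WT light. Its dark means of 554, 516 and 630.4 in the mutants stood beside 700.4 in WT. AT3G10930, a small secreted peptide related to IDA, ran from 312 to 799 with a median of 379 over the mutant light arrays, against 93.8, 26.7 and 41.0 in WT light. The groups did not overlap for either gene in light.

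**Figure D2:**
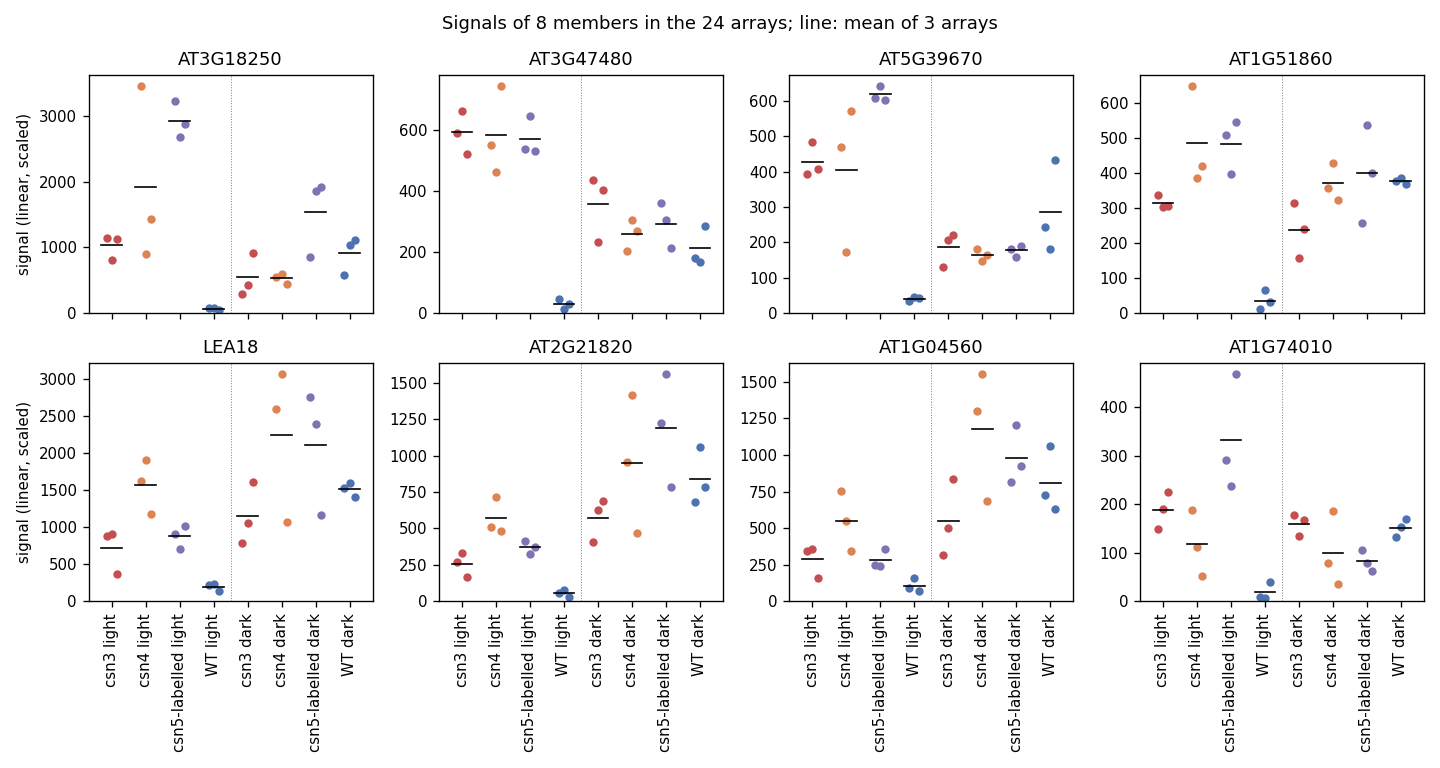
Signals of 8 members on a linear axis from 0 in all 24 arrays, light groups to the left of the dotted line and dark groups to the right, with a line at the mean of 3 arrays. The WT light arrays lie below all others in every panel but that of AT1G74010, where 1 csn4 dark array (35.9) lies under the highest WT light array (40.2).

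Proteins of the ubiquitin system were also present. AT5G47050, a RING-finger protein, ran from 813 to 1679 with a median of 1206 over the mutant light arrays, against 203, 311 and 259.7 in WT light. Its dark arrays ran from 746 to 1463 in the mutants, against 870 to 1156 in WT. AT2G45920, a U-box protein, lay just inside the limit on the WT light response, at -1.52. It had 526, 444 and 824 in csn3 light, 969.9, 1081 and 415 in csn4 light, and 550.3, 489 and 419 in csn5-labelled light, against 154, 105 and 175 in WT light. PUB19, a U-box ubiquitin ligase named after its values were seen, was dimmer and ran from 116 to 189.6 in mutant light, against 35.4, 36.7 and 7.4 in WT light.

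Enzymes and secreted proteins made up a further part. ARPN, a plantacyanin, which is a small copper protein of the cell wall, averaged 925 ± 94.9, 1089 ± 130 and 947 ± 239 (SD, n = 3 each) in csn3, csn4 and csn5-labelled light, against 144 ± 26.5 in WT light. In darkness it averaged 885, 767 and 923, against 541 in WT, and was just inside the dark limit at 0.79 in csn5-labelled arrays. CuAO1, a copper amine oxidase that breaks down polyamines, ran from 728 to 1056 with a median of 791 in mutant light, against 318, 296 and 264 in WT light. Its dark level was 1031 ± 23.2 in WT (SD, n = 3), and 789, 645 and 645 in csn3, csn4 and csn5-labelled arrays.

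AT1G74010 and AT3G51440 both belong to the strictosidine synthase-like family. AT3G51440 ran from 255 to 531 with a median of 425 in mutant light, against 66.2, 81.1 and 95.5 in WT light. AT5G25820, an exostosin-family glycosyltransferase, ran from 233 to 358 in mutant light and from 212 to 457 in mutant darkness, against 34.3, 59.9 and 38.8 in WT light and 186 to 273 in WT darkness. AT3G45730, for which no role is given here, ran from 807 to 1594 in mutant light, against 293, 159 and 132 in WT light.

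The members differed in what light did within the mutants. In the mean of the 3 mutants, light minus dark had a median of 0.08 over the members, with 37 above 0 and 31 below, against a median of -0.03 over all tested probe sets. It was above 0.5 in 14 members, between -0.5 and 0.5 in 46, and below -0.5 in 8. The sign was positive in all 3 mutants for 24 members, negative in all 3 for 19, and mixed for 25. Since these differences are sums of the contrasts that chose the members, they carry no test. By mutant, the median was -0.12 in csn3, 0.06 in csn4 and 0.21 in csn5-labelled seedlings, and only the csn4 value runs across accession ranges.

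The 3 light arrays lay above the 3 dark arrays in 11 members in csn3 (9.38% of all tested probe sets), in 10 in csn4 (10.3%) and in 25 in csn5-labelled seedlings (19.1%). They lay below in 8 members in csn3 (9.75%), 6 in csn4 (11.1%) and 11 in csn5-labelled seedlings (16.6%). These contrasts are built from those of the rule, so nothing is read from the counts.

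**Figure D3:**
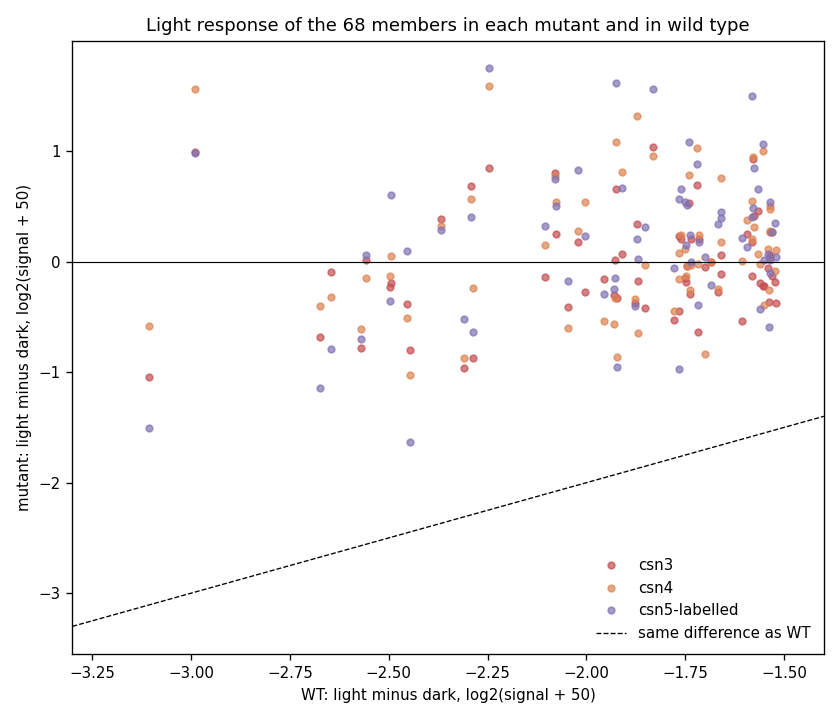
Light minus dark in WT (x axis) and in each mutant (y axis) for the 68 members, in differences of log2(signal + 50). Points scatter about 0 on the y axis and lie above the dashed line of equal response, as the rule fixes. The highest mutant value was 1.75 and the lowest -1.63, both in csn5-labelled seedlings.

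Members that were higher in light than in darkness within the mutants included the probe set 256012_at, unnamed here, at 1.39, AT5G39670 at 1.18, AT3G18250 at 1.18 and AT3G47480 at 0.87. AT5G39670 gave 1.03 in csn3, 0.95 in csn4 and 1.56 in csn5-labelled seedlings, whereas the WT value was -1.83. For 256012_at the signals ran from 339 to 1247 with a median of 446 in mutant light, against 4.9, 3.0 and 23.4 in WT light. In darkness it ran from 138 to 210.2 in the mutants, against 168 to 366 in WT.

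At the other end, 8 members were below -0.5, of which 3 were unnamed here. AT1G04560, of the AWPM-19 membrane protein family, kept a lower level in light in each mutant, with light minus dark of -0.80 in csn3, -1.02 in csn4 and -1.63 in csn5-labelled seedlings, against -2.45 in WT. Its signals were 344, 360.1 and 162 in csn3 light, 751, 549 and 344 in csn4 light, and 251, 243 and 355 in csn5-labelled light, against 93.1, 158 and 72.6 in WT light. Dark csn3 arrays gave 319, 499 and 836, dark csn4 arrays 1299, 1553 and 684, and dark csn5-labelled arrays 812, 1205 and 924, against 726, 1062 and 634 in WT.

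LEA18, a late embryogenesis abundant protein thought to protect cells against water loss, gave -0.69, -0.40 and -1.14 in csn3, csn4 and csn5-labelled seedlings, against -2.67 in WT. Its signals were 881, 904 and 366 in csn3 light, 1619, 1908 and 1181.5 in csn4 light, and 912, 709 and 1015 in csn5-labelled light, against 218.5, 241 and 138 in WT light. In the dark mutants they ran from 787 to 3069 with a median of 1607, against 1528.5, 1603 and 1409 in WT.

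AT2G21820, annotated as a seed maturation protein, had the lowest WT light response of the members, at -3.10, and gave -1.04, -0.58 and -1.51 in csn3, csn4 and csn5-labelled seedlings. It averaged 255 ± 82.4, 569.8 ± 130 and 372 ± 45.5 (SD, n = 3 each) in csn3, csn4 and csn5-labelled light, against 54.3 ± 26.2 in WT light. AT2G38905, of a family of small membrane proteins induced by cold and salt, averaged 156, 291 and 283 in the mutants in light, against 34.1 in WT light, and light minus dark was -0.96, -0.88 and -0.52.

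These 4 genes are the lowest of the 68 members by the mutants' mean of light minus dark, and in each mutant their light mean lay between the same mutant's dark mean and that of light-grown WT. In some mutant groups, though not in all, the same array was the lowest for several of these genes. In csn3 light, replicate 3 was the lowest of the 3 arrays for AT1G04560, LEA18 and AT2G21820, but not for AT2G38905. In csn5-labelled dark, replicate 1 was the lowest for AT1G04560 and AT2G38905, and replicate 3 for LEA18 and AT2G21820. In csn4 dark, replicate 3 was the lowest for all 4 genes, and also in the median signal of all members (384.9, against 446.6 and 474.8). Its GAPDH ratio was 27.5, against 14.4 for the lowest csn4 dark array, and its part was not tested.

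AT3G56350, a manganese superoxide dismutase family member, and AT5G01300, of the phosphatidylethanolamine-binding family, were the next lowest named genes, at -0.53 and -0.41. AT3G56350 averaged 104 ± 21.9, 256 ± 93.8 and 126 ± 37.6 (SD, n = 3 each) in csn3, csn4 and csn5-labelled light, against 25.4 ± 22.2 in WT light. AT5G01300 averaged 249, 386 and 273, against 92.9 in WT light.

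Relative to darkness in WT, light-grown mutants were above in 32 members and below in 36, with a median of -0.07. All 9 mutant light arrays lay above all 3 WT dark arrays in 2 members (22.5% of tested probe sets) and below in 4 (16.9%). All 9 mutant dark arrays lay above all WT dark arrays in 2 members (19.8%) and below in 4 (15.8%). The rule bounded the dark difference, so nothing is read from these counts.

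The mutants were then set against each other, since the rule gave each mutant the same limits and no order between them. These contrasts still use values that the rule bounded. A limma fit with 1 mean per group over all 24 arrays gave the tests, with p-values adjusted over all tested probe sets. Calls needed a size of 1 or more on the log2 scale together with an adjusted p below 0.05. AT1G74010 was lower in csn4 than in csn5-labelled light, and the unnamed probe set 248352_at was higher in csn4 than in csn5-labelled light. These were the 2 members called in light between csn4 and csn5-labelled seedlings, 1 in each direction, where 1.93% of all tested probe sets were called. At an unadjusted p under 0.05 there were 15 members, against 21.1% of all tested probe sets. The csn4 and csn5-labelled light arrays lie in different accession ranges, from which these differences cannot be told apart.

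AT1G74010 had 188, 113 and 53.2 in csn4 light, against 291, 239 and 468 in csn5-labelled light. In csn3 light it had 148, 190.5 and 225, and in WT light 9.2, 7.2 and 40.2. The csn4 and csn5-labelled arrays did not overlap, and the log2 difference was -1.23 ± 0.33 (SE, limma adjusted p = 0.0343). It was lost in limma without csn4 light replicate 2 (adjusted p = 0.133) or 3 (0.0729), without csn5-labelled light replicate 1 (0.0770) or 3 (0.151), with a pseudocount of 16 (0.0579), in a fit of those groups alone (0.186) and without the 3 arrays of GAPDH ratio above 20 (0.0735). The set 248352_at had 491, 533 and 431 in csn4 light, against 180.5, 276 and 187 in csn5-labelled light. The difference was 1.03 ± 0.23 (SE, limma adjusted p = 0.0147), and it was lost in limma without csn4 light replicate 2 (adjusted p = 0.0842), without csn5-labelled light replicate 1 (0.0642) or 3 (0.0659), in a fit of those groups alone (0.119) and without the 3 arrays of GAPDH ratio above 20 (0.0557).

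Between csn3 and csn4 in light, 0 members were called by limma, where 0.0213% of all tested probe sets were called. At an unadjusted p under 0.05 there were 12 members, against 9.75% of all tested probe sets. The lowest difference was -1.33, for AT4G28460, a gene for a small secreted peptide named after its values were seen, and the highest 0.57, for AT1G74010. AT4G28460 had 125, 77.0 and 181 in csn3 light, against 914, 396 and 139.9 in csn4 light, so the arrays overlapped. Between csn3 and csn5-labelled light, 0 members were called by limma, where 0.384% of all tested probe sets were called. At an unadjusted p under 0.05 there were 10 members, against 9.08% of all tested probe sets. AT3G18250 had the lowest value, -1.47 ± 0.36 (SE, limma adjusted p = 0.0526), with all csn3 arrays below all csn5-labelled arrays.

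The rule bounded the difference of each mutant from WT in darkness, which also limits how far the dark mutants can differ from each other. The dark p-values thus test values that the rule used. All tested probe sets were not bounded in this way, so nothing is read from the dark counts beside their shares. In darkness limma called 1 member between csn4 and csn5-labelled arrays, AT3G18250, with 1.97% of all tested probe sets called. It had 552, 596 and 437 in csn4, against 859, 1849 and 1914 in csn5-labelled arrays, a log2 difference of -1.39 ± 0.36 (SE, limma adjusted p = 0.0335). The call was lost without csn4 dark replicate 1 (limma adjusted p = 0.0585) or 3 (0.146) and without csn5-labelled dark replicate 2 (0.101) or 3 (0.120). The GAPDH ratios of these groups did not overlap, and their part in the difference was not tested. For csn3 against csn5-labelled arrays in darkness the same gene gave -1.48 ± 0.36 (SE, limma adjusted p = 0.0556), and 0 members were called by limma, where 0.341% of all tested probe sets were called. With the replicate number as a block, 1 member was called there. For csn3 against csn4 in darkness limma called 0 members and 0.448% of all tested probe sets. At an unadjusted p under 0.05 the dark contrasts held 10 members for csn4 against csn5-labelled arrays (23.7% of all tested probe sets), 14 for csn3 against csn5-labelled arrays (12.8%) and 9 for csn3 against csn4 (13.8%).

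**Figure D4:**
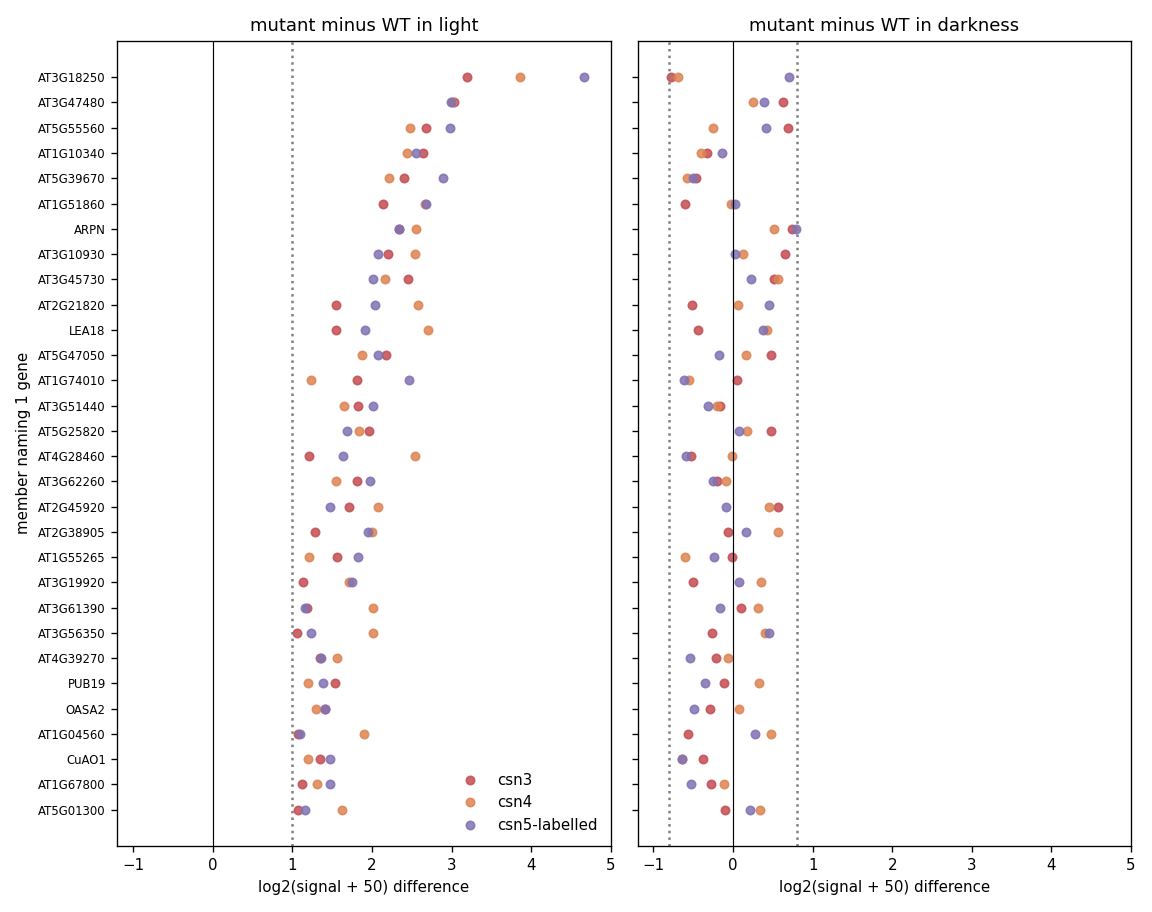
Differences from WT in light (left) and in darkness (right) for the 30 members naming 1 gene, 1 point per mutant, in log2(signal + 50). Dotted lines are the limits of the rule, at 1 in light and at 0.8 either side of 0 in darkness. The mutants lie farthest apart for AT3G18250, from 3.19 in csn3 to 4.67 in csn5-labelled seedlings.

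Over all members the range of the light difference across the 3 mutants had a median of 0.42 and reached 1.47. The highest value belonged to csn3 in 16 members, to csn4 in 27 and to csn5-labelled seedlings in 25. The median difference between mutants in light was -0.06 for csn3 minus csn4, -0.06 for csn3 minus csn5-labelled and 0.01 for csn4 minus csn5-labelled seedlings. Over all tested probe sets these medians were -0.04, 0.02 and 0.07.

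Probe sets lay close to each limit of the rule on both sides. On the WT light response, AT2G45920 and 2 unnamed probe sets lay just inside at -1.52, -1.52 and -1.53, and 265228_s_at, AT4G30640 and GAMMA-VPE, a vacuolar protease, just outside at -1.49, -1.48 and -1.48. For the dark limit, 260023_at, ARPN and 259058_at lay inside at 0.80, 0.79 and 0.79, and AT2G23110, AT1G61360 and AT5G09290 outside at 0.82, 0.83 and 0.84. For the light limit, 257737_at, 247437_at and 265989_at lay inside at 1.01, 1.04 and 1.04. AT5G01670, AT5G51160 and UPB1, a transcription factor of root growth, lay outside at 0.97, 0.89 and 0.87.

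Other genes of related processes came from 15 lists of 199 genes in all. Only 46 of these genes had a probe set naming them alone, all 46 were tested, and 0 were members. In the mean of the 3 mutants against WT in light, limma called 7 of the 46 higher and 14 lower, where it called 11.4% of all tested probe sets higher and 9.21% lower. In darkness it called 7 higher and 22 lower (13.5% and 11.7% of all). In WT light against dark it called 9 higher and 13 lower (9.48% and 9.77% of all).

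All 4 measured genes of leaf senescence rose in the light-grown mutants, with a median log2 difference of 1.93, against 0.18 over all tested probe sets. WRKY53, a transcription factor that promotes senescence, had 434, 612 and 486 in csn3 light, 514, 564 and 577.5 in csn4 light, and 666, 608 and 586 in csn5-labelled light, against 66.2, 62.5 and 52.6 in WT light. It rose by 2.46 ± 0.19 (SE, limma adjusted p = 2.94e-11). SAG101, an acyl hydrolase-like protein that also acts in defence, averaged 591 ± 53.6, 720.3 ± 213 and 545 ± 171 (SD, n = 3 each) in csn3, csn4 and csn5-labelled light, against 110.4 ± 4.87 in WT light. It rose by 2.02 ± 0.20 (SE, limma adjusted p = 3.84e-09).

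SAG29, a sugar transporter of the SWEET family, rose by 1.83 ± 0.21 (SE, limma adjusted p = 2.75e-08), and WRKY6, another senescence-linked factor, by 1.42 ± 0.23 (SE, limma adjusted p = 7.46e-06). In darkness WRKY53 rose in the mutants by 1.05 ± 0.19 (SE, limma adjusted p = 3.95e-05), while SAG101 at 0.86 and SAG29 at 0.78 missed the size limit and WRKY6 was at 0.00. Unlike the members, which the rule required to fall by 1.5 or more, the 4 genes had WT light differences between -0.56 and -0.43, and none of them passed in limma (0 of 4 at an adjusted p under 0.05, 2 of 4 at an unadjusted p under 0.05).

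Genes of autophagy and of amino acid breakdown, both known to be induced by darkness, were mostly lower in the dark mutants. Of 9 autophagy genes, all of the ATG8 family, limma called 6 lower in WT light than in WT darkness and 7 lower in the dark mutants. In the light-grown mutants ATG8B rose by 1.51 ± 0.16 (SE, limma adjusted p = 6.57e-09), ATG8E fell by 1.94 ± 0.14 (SE, limma adjusted p = 8.43e-12), and 7 did not pass, among them ATG8F at -0.99 and ATG8G at 0.75. ATG8B thus shared the light pattern of the members, but it was also 1.30 lower in the dark mutants.

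Of 9 amino acid breakdown genes, limma called 5 lower in WT light, 5 lower in the dark mutants, and 0 higher and 3 lower in the light-grown mutants. IVD, an enzyme of leucine breakdown, fell by 1.22 ± 0.21 (SE, limma adjusted p = 1.65e-05) in light, MGL, a methionine lyase, by 1.36, and MCCA, a subunit of methylcrotonyl-CoA carboxylase, by 1.11. MCCB, the other subunit of that carboxylase, named after its values were seen, went the other way, at 0.875. It missed the size limit, as did AT2G26800, also of leucine breakdown, with a difference of 0.84.

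Of 3 carbon starvation genes, AKINBETA1 fell by 2.39 ± 0.13 (SE, limma adjusted p = 1.47e-14) in the light-grown mutants, and ATL8 and BZIP53 had differences of -0.75 and -0.05. In the dark mutants the differences were -2.38, -3.54 and -0.875 in the same order. Of 3 genes of abscisic acid and water stress, COR15A rose by 2.34 ± 0.26 (SE, limma adjusted p = 2.91e-08), whereas COR47 and COR15B had -0.28 each. In the dark mutants COR15A had a difference of 2.81, COR15B of 0.55 and COR47 of -1.52. For WT light minus dark the values were 1.03, 1.08 and -0.16 in the same order. Of 2 oxidative stress genes 1 rose in light, AT2G21640, by 3.03, with 2.33 in darkness, while GSTU25 had 0.24 in light and -1.56 in darkness. Of 2 fatty acid breakdown genes limma called 0 in light (0 at an unadjusted p under 0.05), and the 1 defence gene did not pass. The lists of seed maturation, phytochrome signalling, jasmonate and the clock had 0 measured genes.

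**Figure D5:**
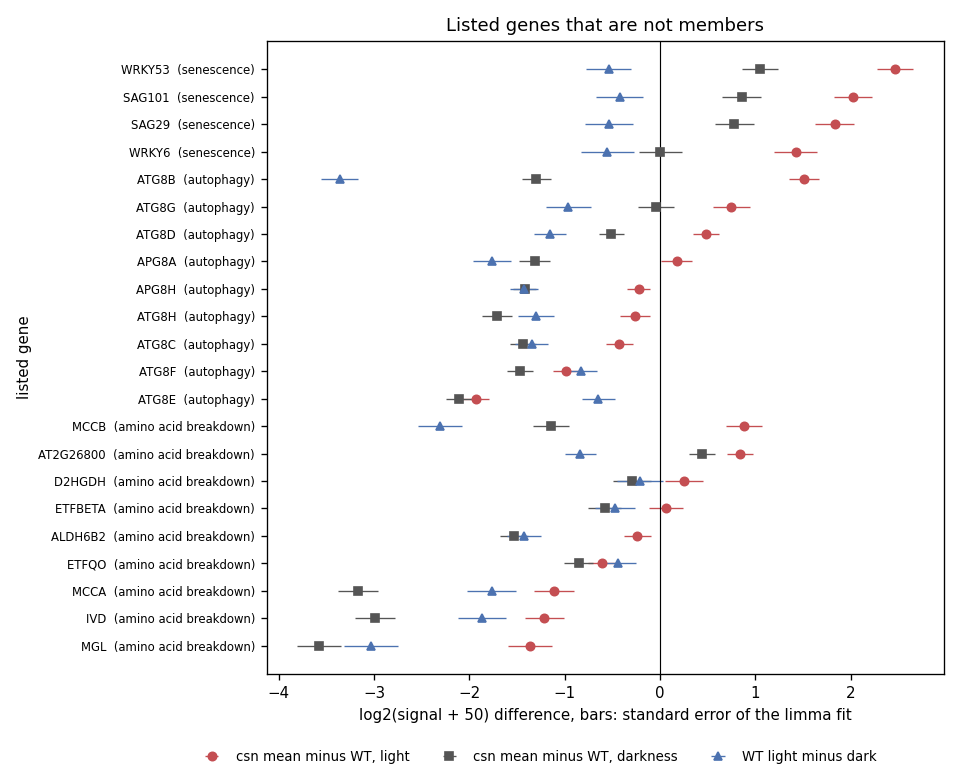
Log2 differences, with the standard error of the limma fit, for listed genes of senescence (4), autophagy (9) and amino acid breakdown (9), none of them members. The 4 senescence genes lie between 1.42 and 2.46 in mutant light (circles), while the WT light response (triangles) is lowest for ATG8B, at -3.36.

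Markers of organs differed between mutants and WT in light and in darkness. The summed signal of 5 root markers was 6899 to 8227 in csn3 light, 4733 to 7204 in csn4 light and 4776 to 5511 in csn5-labelled light, against 17451 to 18219 in WT light, and limma called 4 of 5 lower. Most of each sum came from PYK10, which averaged 6564, 5213 and 4872 in the same mutants, against 16270 in WT light. The sum of 6 leaf and photosynthesis markers was 33581 to 39097, 24230 to 42016 and 26976 to 34226 in the same mutants, against 90732 to 99181 in WT light, with 4 of 6 lower. PSAE-1 at -0.90 missed the size limit. So did LHCB4.3, named after its values were seen, which went the other way at 0.95. Of 2 markers of the shoot apex and stomatal lineage, FMA fell by 1.03 and SPCH had a difference of -0.54. In darkness the root sum was 6542 to 7310 in csn3, 4699 to 7020 in csn4 and 6885 to 8953 in csn5-labelled arrays. In WT dark it was 24666 to 27348, and limma called 4 of 5 lower. The dark leaf sum was 21273 to 39378, 30792 to 38723 and 38347 to 40568 in the same mutants, against 16609 to 22044 in WT. Limma called 3 of these 6 higher and 1 lower. No marker list held a member, each mutant light group had 2 of the 5 root markers below 100 in all its arrays (not the same genes in each group), and the part of such shifts in the members' levels was not tested.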

How the data were processed

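Deposited values were linear intensity signals per probe set, made by the authors with MAS5 per the submitters' processing notes. For its version, scaling target and filters, the sources used here give nothing. All 24 columns matched a sample, and 0 were left out. Arrays were rescaled so that the mean signal after trimming 2% at each end was 500, then log2(signal + 50) was computed (Python 3.11.15). Probe sets with a signal of at least 100 in 3 arrays were tested with limma 3.58.1 in R 4.3.3 (lmFit, eBayes with trend, 1 mean per group, all arrays), with Benjamini-Hochberg adjustment. The fit was tested on simulated data.

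Members and lists were chosen with earlier results of these data known. Named members were the 15 highest in mutant light, the 6 highest and 6 lowest in mutant light minus dark, those called between mutants, those nearest a limit and the 5 brightest in WT dark, with up to 4 genes per list by adjusted p. Names came from the platform table, with symbols brought up to date from RefSeq's TAIR10.1 genes (13436 of 13513 matched), and all 30 named members matched. Promoter motifs were not analysed here. The third csn3 dark array, whose title repeats replicate 1, is called replicate 3. The number of arrays limits the precision.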

Additional observations from a re-analysis of the deposited data

Results flagged for a closer look

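Members called by limma between csn4 and csn5-labelled seedlings were AT1G74010 in light (log2 difference -1.23), the unnamed probe set 248352_at in light (1.03) and AT3G18250 in darkness (-1.39). The rule bounded the values behind each difference. Each call was lost under some alternatives, as given with its values above, and the light differences cannot be told apart from the accession ranges of the arrays. The GAPDH ratios of csn4 and csn5-labelled arrays did not overlap in light or in darkness, and their part was not tested.

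A signal outside the main measurement also differed. The array control for 25S ribosomal RNA, which is not part of the comparisons, was at 13702 or more in all 9 mutant light arrays, against 1030 to 5330 in WT light. In darkness it ran from 304 to 32334 over the mutant arrays, against 352 to 744 in WT.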

How the results depend on the processing

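The number of members depended on the scale. It was 68 with signals as deposited or with no filter and 67 with a minimum of 200, but 39 with quantile normalization (34 of the 68 kept) and 116 with a pseudocount of 16 (59 kept). Leaving out 1 array gave 57 to 84 members, with 53 to 68 of the 68 kept. Without the 3 arrays of GAPDH ratio above 20 (csn4 light replicate 2, csn3 dark replicate 1, csn4 dark replicate 3), a choice made after seeing the data, it was 66. The members' median difference in light was 1.80, 1.54 with quantile normalization, 2.20 with a pseudocount of 16, and 1.73 to 1.86 without 1 array. For named members, the alternatives were run on the mutants' mean difference from WT in light, whose direction the rule fixes, and on the called differences between mutants. None of these changed sign, and the dark differences and light responses of single members were not recomputed. By size, 27 values of named members moved by at least that member's SD within groups, and 900 did not. For 247437_at the difference fell to 0.82 with quantile normalization, and for 265989_at to as low as 0.91 without 1 array.

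Calls between mutants were few and unstable, and in darkness the rule itself limited the size of the differences. For csn4 against csn5-labelled light, 0 to 5 members were called without 1 array, 0 in a fit of those groups, 1 with a pseudocount of 16 and 1 without the 3 arrays. For csn3 against csn5-labelled light these were 0 to 2, 2 in a fit of those groups and 2 without the 3 arrays, and for csn3 against csn4 light 0 to 2. In darkness, csn3 against csn4 gave 0 without any 1 array, 1 with quantile normalization and 1 without the 3 arrays, csn3 against csn5-labelled arrays 0 to 2, and csn4 against csn5-labelled arrays 0 to 1. Replicate numbers were not taken as pairing the arrays: 5 of 18 same-numbered pairs correlated over 0.1 (-0.34 to 0.15). All 3 of csn3 against csn5-labelled darkness did, but 2 csn3 dark arrays carry the same number and were set against 1 csn5-labelled array. With the replicate number as a block, that contrast gave 1 called member, and the block changed no other count of calls. Listed genes called in light stayed at 7 to 8 higher and 13 to 15 lower without 1 array, with 4 senescence genes higher each time.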
